A study of Mus musculus with 8 samples.

Results

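The 10 genes described here encode the core enzymes and regulators of polyamine metabolism, chosen by symbol from the 45777 genes of the deposited count table: Odc1, Amd1, Srm and Sms for synthesis, Sat1, Smox and Paox for back-conversion and breakdown, Oaz1 and Azin1 for control of ornithine decarboxylase, and Arg2 for supply of ornithine. All 10 had 1 row in the table and passed the filter on low counts. RNA sequencing was done on colonic organoids, epithelial cultures grown in Matrigel from the crypts of 9-week-old male mice. The study is about IL-22, Paneth cell metaplasia and wound healing through REG3A, a secreted lectin. In the KO group (Reg3aΔIEC, 4 libraries, replicates 5 to 8) loxP sites around exons 2 to 4 of Reg3a had been recombined by Cre under the Villin promoter, which is active in intestinal epithelium. The labels name C57BL/6J as the strain bought in, and CRISPR/Cas9 as the means of inserting the loxP sites. The WT group (4 libraries, replicates 13 to 16) was Reg3afl/fl and so also carried the loxP sites. The labels do not say whether the WT mice carried Cre. Organoids of both genotypes were taken 3 days after passage, at no more than 15 passages, without IL-22 or any other treatment. The labels name 1 mouse per genotype in 4 wells in one sentence and 3 mice in another, so the p-values reflect only how far the libraries spread, possibly for technical reasons, and genotype cannot be told apart from mouse or organoid line.

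Polyamines (putrescine, spermidine and spermine) are small positively charged molecules that bind nucleic acids and are needed for cell growth, and the intestinal epithelium, which renews itself constantly, has long been known for high ornithine decarboxylase activity. Ornithine decarboxylase makes putrescine from ornithine, and spermidine synthase and spermine synthase then add aminopropyl groups that come from decarboxylated S-adenosylmethionine. Spermidine/spermine acetyltransferase, encoded by Sat1, acetylates the products so that they can be exported or oxidised. The pathway is held in balance by antizyme, which targets ornithine decarboxylase to the proteasome, and by antizyme inhibitor, which is a relative of the enzyme that binds antizyme in its place.

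Library totals ran from 37182098 to 49256171 counts. Reg3a itself had 0 counts in all 8 libraries, which allows at most 0.0807 CPM (counts scaled to library size) in the shallowest, so the labels could not be checked on the targeted gene. Epithelial identity was checked on 6 defining genes, all tested, whose summed level was 7984 to 8362 CPM in KO and 7743 to 8180 CPM in WT. Of these, Vil1 and Cdx2 were higher in KO and the other 4 did not pass. Fibroblast markers summed to at most 0.371 CPM, with Col1a2, Dcn and Lum at 0 in every library, and 4 smooth muscle markers to at most 0.686 CPM. Of 6 immune markers Cd3e was at 0, and nearly all of the sum (28.7 to 34.3 CPM in KO, 31.2 to 43.4 CPM in WT) was Cd68, which was lower in KO at an edgeR adjusted p of 0.0399. Endothelial markers were at or below 0.048 CPM except in KO replicate 6, where they summed to 1.32 CPM. Within the epithelium, markers moved with genotype. In KO 7 of 8 genes of proliferating cells, 4 of 6 of crypt stem cells, 4 of 6 of goblet cells and 2 of 5 of enteroendocrine cells were lower, while 5 of 6 absorptive colonocyte genes were higher (edgeR, adjusted p under 0.05). The 8 genes of proliferating cells summed to 967 to 1009 CPM in KO and 1136 to 1326 CPM in WT. The colonocyte genes summed to 5947 to 6120 CPM in KO and 4228 to 4709 CPM in WT, the stem cell genes to 1177 to 1289 and 1201 to 1502 CPM, the goblet genes to 106 to 132 and 148 to 194 CPM, and the enteroendocrine genes to 18.3 to 26.7 and 26.6 to 38.7 CPM. Most of the stem cell sum was Slc12a2 (950 to 1044 CPM in KO, 937 to 1241 CPM in WT), which did not pass (edgeR adjusted p = 0.224). Of 4 tuft cell markers 1 was tested and was lower, Pou2f3 was at 0, and the sum was at most 0.662 CPM in KO and 0.935 CPM in WT. The part of these shifts in the polyamine results was not tested. In bulk libraries fewer cells of a type and less RNA per cell cannot be told apart.

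Of the 10 genes 2 were lower in KO and none was higher, and both that fell belong to back-conversion. In the same fit 8.26% of the 14945 genes tested were lower, 7.63% higher and 15.9% changed in either direction (quasi-likelihood test of edgeR, adjusted p under 0.05 by Benjamini-Hochberg), so 2 of 10 lies close to the share among all genes. The 2 became 1 when any single library except WT replicate 15 was left out. The 4 synthesis genes, the 2 control genes and Arg2 did not pass, and Odc1, Amd1, Sms, Paox, Oaz1 and Azin1 had estimated differences of -1.59% to 4.37%. The median log2 fold change of the 10 was -0.015, against -0.0012 over all genes tested. For 3 of the 10, Sat1, Smox and Srm, every KO library lay below every WT library. That holds for 10.3% of all genes tested, and the opposite, seen for none of the 10, for 9.91%.

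**Figure D1:**
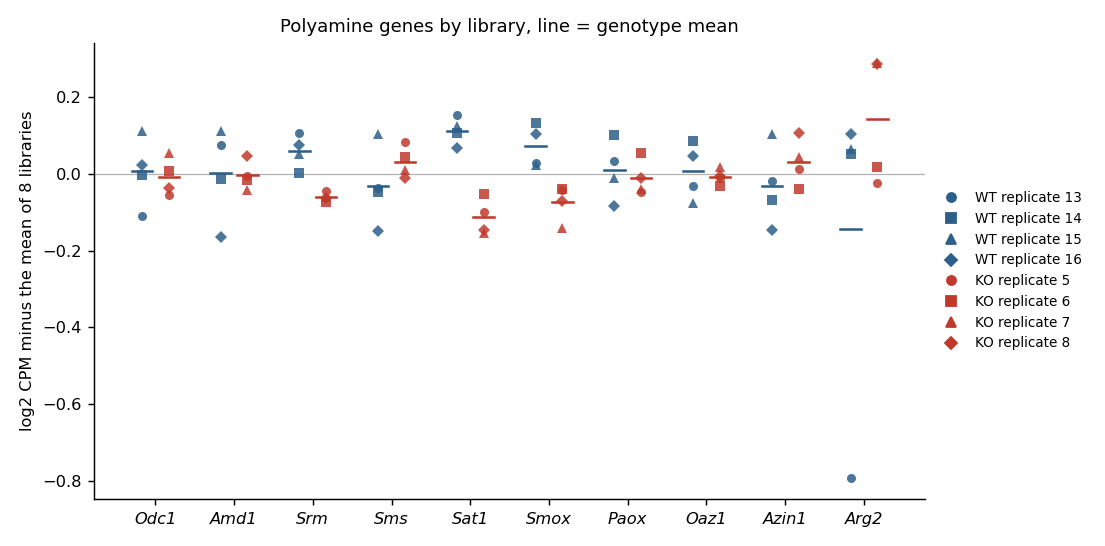
Each point is 1 library, at its log2 CPM for a gene minus the mean of all 8 libraries, with WT in blue, KO in red and a line at each genotype's mean. The KO points lie below all WT points for Sat1, Smox and Srm, while WT replicate 13 stands far below the other libraries for Arg2.

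Sat1 and Smox are shown by sequence because they are the 2 genes that passed, Smox only marginally (edgeR adjusted p = 0.0475). Promoter windows from RefSeq (GRCm38.p6, 250 bases before to 50 after the transcription start) were found for 7 of the 10 genes, and not for Srm, Azin1 and Arg2. The windows of Sat1 (chrX:155216400-155216699, minus strand) and Smox (chr2:131491612-131491911, plus strand) follow, 5′ to 3′, with GGGCGG, the core of the GC box, in capitals on either strand.
Sat1 promoter: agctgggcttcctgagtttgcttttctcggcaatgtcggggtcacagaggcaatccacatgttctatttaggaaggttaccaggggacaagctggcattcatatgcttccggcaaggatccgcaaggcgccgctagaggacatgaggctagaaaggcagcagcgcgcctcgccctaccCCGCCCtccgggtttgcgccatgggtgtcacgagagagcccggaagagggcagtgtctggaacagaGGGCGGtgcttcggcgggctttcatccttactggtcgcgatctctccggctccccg
Smox promoter: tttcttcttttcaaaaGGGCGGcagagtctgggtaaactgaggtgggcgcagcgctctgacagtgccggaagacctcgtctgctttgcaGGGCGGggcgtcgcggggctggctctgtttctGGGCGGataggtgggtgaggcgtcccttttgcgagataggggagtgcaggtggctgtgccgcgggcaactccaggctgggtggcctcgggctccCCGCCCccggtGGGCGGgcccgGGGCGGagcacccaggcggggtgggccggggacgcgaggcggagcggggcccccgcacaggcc
GGGCGG was found at 2 places in the Sat1 window and at 6 in that of Smox, on both strands, with no overlaps. Among the genes of the 10 that did not pass, the Odc1 window held 4, that of Amd1 1 and that of Oaz1 0. The windows of Paox held 3 each, and those of Sms 0 and 4. Of all 32851 windows of this length 35.7% hold GGGCGG. Neither the Sat1 nor the Smox window holds the E-box CACGTG, which is present in 7.15% of all windows, or TATAAA, present in 13.6%. Elsewhere in the set CACGTG was found only in 1 window of Sms, and TATAAA only in that of Oaz1. These matches are descriptions of the letters and not binding sites. Gene coordinates given below are from RefSeq on the same build.

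Sat1 also carries a switch in its splicing. As background, it can include an extra exon with a premature stop codon, and such RNA is degraded. Polyamines are known to lower that inclusion. The GENCODE annotation of GRCm38 places the exon at chrX:155215121-155215230 (110 bases, minus strand), between coding exons. The 2 joins are shown in DNA letters, first the last 30 bases of the exon before it in lower case and then the first 14 bases that follow in capitals.
Sat1 productive join: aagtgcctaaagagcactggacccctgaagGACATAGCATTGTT
Sat1 join into the extra exon: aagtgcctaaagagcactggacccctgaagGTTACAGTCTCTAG
The capitals of the second join end in TAG, which is in frame. The deposited counts are per gene, so reads from both forms enter the Sat1 values below.

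Sat1 (chrX:155213126-155216449) was the gene of the 10 with the lowest adjusted p. It stood at 594, 613, 572 and 575 CPM in KO replicates 5 to 8 and at 707, 684, 693 and 666 CPM in WT replicates 13 to 16. The genotypes did not overlap, and the gap between them was wider than the range within KO or within WT. KO averaged 588 ± 19.3 CPM and WT 688 ± 17.1 CPM (SD, n = 4). The log2 fold change was -0.23 (SE 0.04, adjusted p = 0.00111 by edgeR), a difference of -14.5% with a 95% interval of -19.1% to -9.60%. The call was kept under all 17 alternatives tried for this gene, with log2 fold changes of -0.25 to -0.21. In the authors' TPM, a level per transcript length, Sat1 ran from 848 to 994 in KO and from 970 to 1159 in WT, and there the genotypes overlapped. With limma on log2(TPM + 1) the log2 fold change was -0.22 (adjusted p = 0.0429, the highest among its alternatives, which ran down to 2.6e-07).

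TPM and CPM of Sat1 did not keep a constant ratio, and 3 libraries stood apart. Each library's TPM per CPM was divided by its median over genes and then by the gene's mean over the 8 libraries. For Sat1 this quotient was 1.05 in WT replicates 13 and 14 and in KO replicates 5 and 8, and 1.06 in WT replicate 16. It was 0.934 in KO replicate 6, 0.923 in KO replicate 7 and 0.880 in WT replicate 15. The 3 low libraries came from both genotypes. For Odc1, Amd1, Srm, Sms and Oaz1 the highest quotient was at most 1.003 times the lowest, while for Sat1 it was 1.20 times, for Smox 1.08 times and for Azin1 1.05 times. The coefficient of variation of the quotient was 7.44% for Sat1, larger than in 96.8% of the 10527 genes compared, where the median was 0.282%. A gene's TPM depends on the transcript lengths assigned to it, and what changed in these libraries was not tested.

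**Figure D2:**
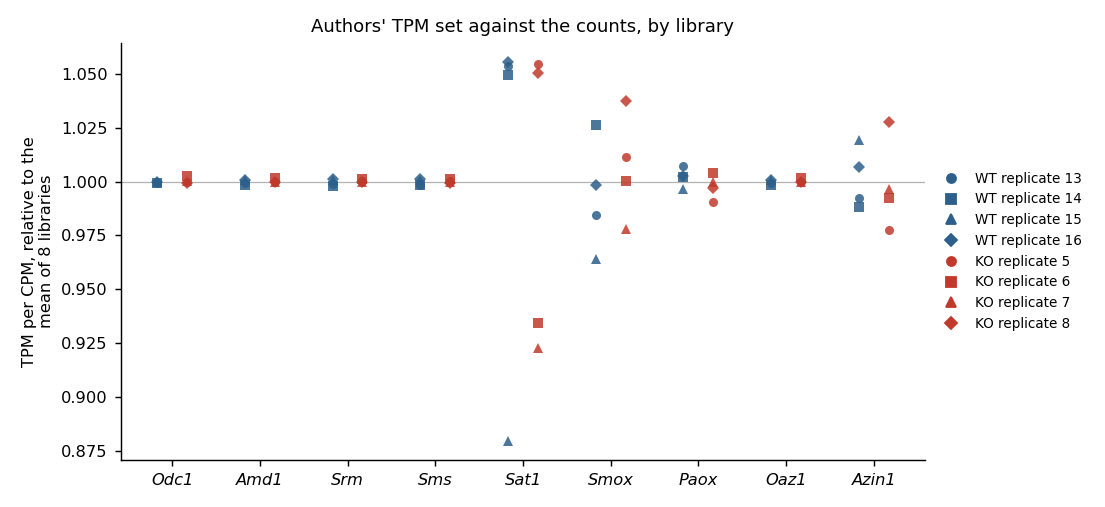
Points show the authors' TPM per CPM for 9 genes in each library, relative to the gene's mean over 8 libraries, so that 1 on the vertical axis means the same conversion as on average. Sat1 splits into 5 libraries near 1.05 and 3 between 0.880 and 0.934, and Arg2 is left out because its mean is below 5 CPM.

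Smox (chr2:131491858-131525183) encodes spermine oxidase, which turns spermine straight back into spermidine and releases hydrogen peroxide. The KO libraries held 56.0, 56.1, 52.3 and 54.9 CPM, and the WT libraries 58.8, 63.2, 58.5 and 62.0 CPM. The genotypes did not overlap, although the lowest WT library was only slightly above the highest KO library. KO averaged 54.8 ± 1.78 CPM and WT 60.6 ± 2.33 CPM (SD, n = 4). The difference was -9.60% (95% interval -15.6% to -3.16%), a log2 fold change of -0.15 (SE 0.05, adjusted p = 0.0475 by edgeR). This call was marginal. It ended without any of KO replicates 5, 6, 7 and 8 or WT replicates 13, 14 and 16, with edgeR adjusted p = 0.0894, 0.0694, 0.150, 0.120, 0.0675, 0.111 and 0.0933. It held without WT replicate 15 (0.0288), and all of its alternatives gave adjusted p-values of 0.0245 to 0.253.

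Paox (chr7:140115735-140134334) encodes the peroxisomal oxidase that acts on acetylated polyamines, the step after Sat1. It ran from 22.2 to 23.8 CPM in KO and from 21.7 to 24.6 CPM in WT, so that the KO libraries lay within the range of WT. Its log2 fold change was -0.02 (SE 0.06, adjusted p = 0.838 by edgeR), and the 95% interval of the difference ran from -9.36% to 6.86%. In the annotation Paox overlaps Echs1 on the opposite strand. Whether Paox and Sat1 responded differently to genotype was not tested.

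Among the synthesis genes, Odc1 encodes ornithine decarboxylase, the rate-limiting first step (chr12:17544808-17551502). Its 4 KO libraries held 112, 117, 121 and 114 CPM, and the 4 WT libraries 108, 117, 126 and 119 CPM. The lowest and the highest library were both WT. KO averaged 116 ± 3.93 CPM and WT 117 ± 7.38 CPM (SD, n = 4), and the log2 fold change was -0.02 (SE 0.05, adjusted p = 0.888 by edgeR). The 95% interval of the difference was -8.11% to 6.58%. Amd1 (chr10:40287458-40302188) encodes S-adenosylmethionine decarboxylase, which supplies the aminopropyl groups. It stood at 143 to 153 CPM in KO and 132 to 160 CPM in WT, with a log2 fold change of -0.01 (SE 0.06, adjusted p = 0.930 by edgeR) and an interval of -8.60% to 7.77%. Amd1 has close copies in the mouse genome. Amd2 and 4 pseudogenes together had 24.6% to 27.0% as many counts as Amd1 in each library, so the split of reads between them is uncertain. With these copies added the Amd1 log2 fold change was -0.0015.

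Srm (chr4:148591513-148594619) and Sms (chrX:157443851-157492287), which encode spermidine synthase and spermine synthase, had estimates of opposite sign, and neither passed the test. Srm was tightly grouped in KO, at 19.5, 19.1, 19.3 and 19.2 CPM, and stood at 21.7, 20.2, 20.8 and 21.2 CPM in WT. Every WT library was above every KO library. Its difference was -7.93% (95% interval -14.6% to -0.712%, before adjustment), at a log2 fold change of -0.12 (SE 0.05, adjusted p = 0.135 by edgeR). Sms ran from 51.5 to 55.0 CPM in KO and from 46.8 to 55.8 CPM in WT, with a log2 fold change of 0.06 (SE 0.05, adjusted p = 0.520 by edgeR). A pseudogene, Sms-ps, had 3.69% to 5.98% as many counts as Sms, and adding it gave a log2 fold change of 0.08 (adjusted p = 0.404 by edgeR, in a range of 0.133 to 0.809 over the alternatives for Sms). The WT range of Sms enclosed that of KO, and WT replicate 16 was the lowest library. The authors' TPM ratio of Sms to Srm within a library was 1.01, 1.00, 0.967 and 0.956 in KO and 0.833, 0.889, 0.955 and 0.789 in WT. The lowest KO ratio, 0.9555 in replicate 8, and the highest WT ratio, also 0.9555 in replicate 15, all but touched. The mean ratio was 0.982 ± 0.0248 in KO and 0.867 ± 0.0718 in WT (SD, n = 4). The two-sided exact permutation p was 0.0286, the smallest that 4 against 4 libraries allow. After Benjamini-Hochberg adjustment over the 4 ratios compared it was 0.114, which did not pass. With the other ratios at an exact permutation p of 0.600 or more, this ratio could not have passed at any separation. No conclusion is therefore drawn from the adjusted value.

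Of the control genes, Oaz1 (chr10:80826656-80829290) encodes antizyme, and its mRNA has a stop codon inside the reading frame. Ribosomes must slip forward by 1 base to read on, and polyamines raise that slippage. The site is shown because the counts measure Oaz1 mRNA and not how often it is read through. It lies at chr10:80828275-80828317 (GRCm38, plus strand, from the GENCODE transcripts), with the in-frame stop codon in capitals, of which the T at 80828295 is the base that the annotated reading frame skips.
Oaz1 frameshift site: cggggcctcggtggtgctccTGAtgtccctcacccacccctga
Oaz1 was measured at 265, 261, 270 and 265 CPM in KO and 261, 283, 253 and 276 CPM in WT. The KO libraries lay within the WT range. The log2 fold change was -0.02 (SE 0.04, adjusted p = 0.857 by edgeR), with a 95% interval from -7.08% to 5.30%. A transcribed pseudogene, Oaz1-ps, had 15.4% to 16.9% as many counts as Oaz1, and adding it gave a log2 fold change of -0.01.

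Azin1 (chr15:38487430-38519294) encodes antizyme inhibitor, which frees ornithine decarboxylase from antizyme. Its libraries held 148, 143, 151 and 158 CPM in KO and 145, 140, 158 and 133 CPM in WT. The highest library of each genotype reached nearly the same level, and the lowest was WT replicate 16. The log2 fold change was 0.06 (SE 0.05, adjusted p = 0.503 by edgeR), with an interval from -3.63% to 13.0%. An antisense gene overlaps Azin1 in the annotation, and the sources used here do not say whether counting used strand. Within a library, Odc1 stood at 0.185 ± 0.00561 times the TPM of Oaz1 in KO and 0.185 ± 0.0170 times in WT (SD, n = 4; two-sided exact permutation p = 1). Azin1 stood at 0.126 ± 0.00715 times Oaz1 in KO and 0.121 ± 0.0156 times in WT (exact permutation p = 0.600). Amd1 and Odc1 were at nearly equal TPM, with a ratio of 1.01 ± 0.0557 in KO and 1.01 ± 0.106 in WT (exact permutation p = 1). The adjusted p was 1 for each of these 3 ratios. The copies of Amd1 were not counted in, so its near-equality with Odc1 depends on how reads were split between them.

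**Figure D3:**
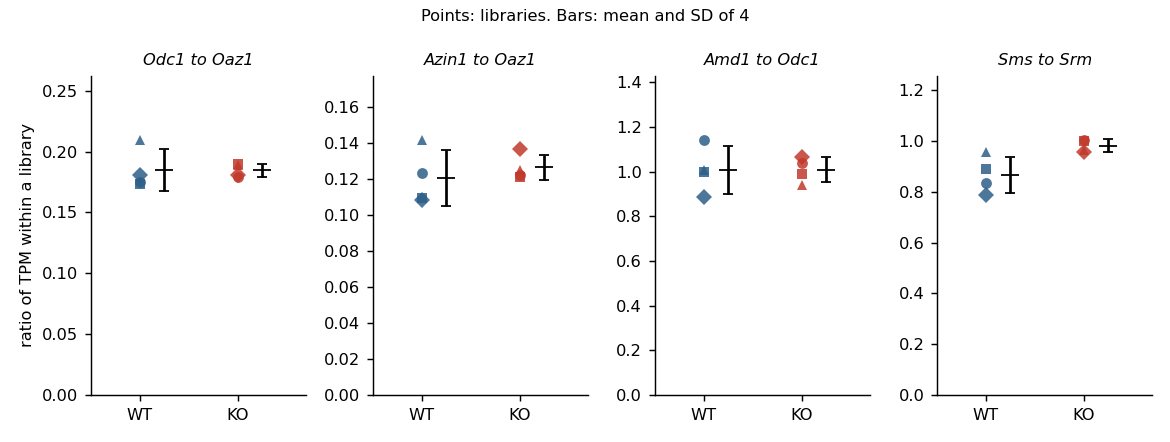
Each panel gives the ratio of 2 genes' TPM within a library (points) for WT and KO, with the mean and SD of 4 libraries beside them and an axis from 0. The genotypes overlap for Odc1 to Oaz1, Azin1 to Oaz1 and Amd1 to Odc1, while for Sms to Srm the KO points lie from 0.956 upward and the WT points up to 0.955.

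Arg2 (chr12:79130788-79156301) encodes the mitochondrial arginase, which makes ornithine from arginine, and had the fewest counts of the 10 genes (96 to 231 per library). It stood at 3.93, 4.04, 4.87 and 4.86 CPM in KO and 2.30, 4.14, 4.17 and 4.29 CPM in WT. WT replicate 13 was far below the other 7 libraries, which overlapped between genotypes. The log2 fold change was 0.25 (SE 0.17, adjusted p = 0.377 by edgeR), and the 95% interval, from -7.87% to 53.0%, was the widest of the 10. Without WT replicate 13 the log2 fold change was 0.08 (adjusted p = 0.744, in a range of 0.281 to 0.744 over its alternatives). The Arg2 gene body also overlaps an antisense gene and Vti1b on the opposite strand.

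Levels of the 10 genes were set beside each other per length, in the authors' TPM. Sat1 was the most abundant at a mean of 1002 TPM over the 8 libraries, and Oaz1 followed at 491. All 8 Sat1 values lay above all 8 Oaz1 values, and these in turn were above those of every other gene of the set. Amd1 (91.2 TPM) and Odc1 (90.6 TPM) could not be ordered, as their ranges of 79.4 to 99.7 and 83.0 to 99.1 TPM overlapped. The Amd1 values leave out its copies. Azin1 (60.5 TPM) and Smox (53.0 TPM) overlapped each other, and all their values, at most 68.1 TPM, lay below those of Amd1 and Odc1. Srm, at 28.3 to 31.9 TPM, overlapped Sms (mean 27.6 TPM), which overlapped Paox (mean 26.0 TPM). Arg2 was lowest at 5.68 TPM, with its highest library at 6.93.

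**Figure D4:**
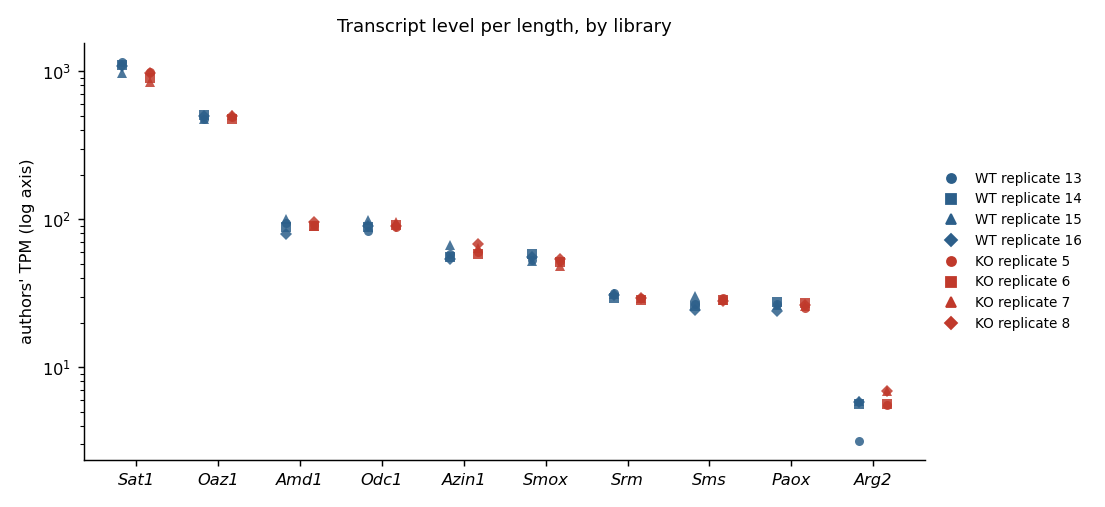
The authors' TPM of the 10 genes is drawn on a log axis, 1 point per library, WT in blue and KO in red, from the most to the least abundant gene. Sat1 lies between 848 and 1159 TPM and Arg2 between 3.17 and 6.93 TPM, and the order of the means is the same in both genotypes.

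Further genes of the pathway, 34 that lead into polyamines, use them or move them, included 28 that could be tested. Of these 1 rose and 5 fell in KO, 21.4% against the 15.9% of all genes that changed, and the median log2 fold change was -0.013. The 5 became 2 without KO replicate 8 or WT replicate 13 and 3 without KO replicate 5 or 7. With limma on log2(TPM + 1) the 5 also became 2. For single genes of this list, the alternatives below leave out that fit and the summing of copies. Oaz3, Satl1, Arg1, Agmat, Mat1a and Slc7a2 had at most 10 counts in any library and were not tested, and Arg1, the cytosolic arginase of liver and of some macrophages, was among them. The largest of the 6 changes were upstream, in the supply of arginine and ornithine. Ass1, which encodes argininosuccinate synthase, stood at 52.2, 52.7, 50.6 and 51.5 CPM in KO and 75.1, 78.2, 67.7 and 78.4 CPM in WT. The genotypes were far apart, and the difference was -30.9% (log2 fold change -0.53 with SE 0.05, adjusted p = 2.4e-05 by edgeR). Asl, which encodes the next enzyme of arginine synthesis, argininosuccinate lyase, averaged 41.5 ± 2.54 CPM with KO and 47.5 ± 2.50 CPM with WT (SD, n = 4), and was lower in KO (adjusted p = 0.0333 by edgeR). Leaving out KO replicate 5, 7 or 8 or WT replicate 13, 14 or 16 ended the Asl call, as did using no filter on low counts, and the adjusted p over its alternatives ran from 0.0142 to 0.112.

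Aldh18a1 encodes the enzyme that turns glutamate into the precursor shared by proline and ornithine. It was at 61.3, 61.7, 57.6 and 57.9 CPM in KO and 86.0, 79.2, 77.2 and 78.1 CPM in WT, without overlap, a difference of -25.6% (log2 fold change -0.43 with SE 0.05, adjusted p = 7.9e-05 by edgeR). Oat, ornithine aminotransferase, which links that precursor to ornithine and was the most abundant gene of this group at 91.9 TPM, averaged 98.8 ± 1.96 CPM with KO and 101.5 ± 1.75 CPM with WT (SD, n = 4; edgeR adjusted p = 0.574). Ass1 and Aldh18a1 kept their calls under all 15 alternatives counted for them, which leave out the summing of copies and limma on log2(TPM + 1).

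At the other end of the pathway, Aoc1 rose. It encodes diamine oxidase, a secreted enzyme of the intestinal epithelium that breaks down putrescine and histamine. It stood at 77.3, 76.8, 76.9 and 77.5 CPM in KO and 60.5, 66.5, 61.7 and 63.6 CPM in WT. The KO libraries were nearly identical and all above WT, and the level was 22.2% higher (95% interval 14.6% to 30.4%; log2 fold change 0.29 with SE 0.04, adjusted p = 5.7e-04 by edgeR). This call was kept under the same 15 alternatives as those of Ass1 and Aldh18a1. So of the breakdown genes Sat1 and, marginally, Smox were lower and Aoc1 higher, while Paox and the remaining breakdown gene tested did not pass. Oaz2, a second antizyme gene and the most abundant of the paralogs, was above WT in every KO library (39.2 ± 1.21 against 35.7 ± 0.254 CPM, SD, n = 4) but missed the threshold (log2 fold change 0.14 with SE 0.04, adjusted p = 0.0527 by edgeR, range over alternatives 0.0291 to 0.132).

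Among the remaining groups 2 genes passed. Adi1, of the methionine salvage pathway that recycles the by-product of polyamine synthesis, fell from 41.7 ± 2.84 to 36.7 ± 1.13 CPM (SD, n = 4; edgeR adjusted p = 0.0364). The genotypes overlapped, since WT replicate 16 held 37.7 CPM and KO replicate 5 37.8 CPM. The Adi1 call ended without any 1 of the 4 KO libraries or of WT replicates 13 and 14, and with no filter on low counts, within adjusted p-values of 0.00784 to 0.128. Mat2b, the regulatory subunit of S-adenosylmethionine synthesis and the most abundant gene there, averaged 88.1 ± 1.55 CPM with KO and 83.9 ± 2.77 CPM with WT (SD, n = 4; edgeR adjusted p = 0.291). Slc3a2, the shared heavy chain of several amino acid exchangers, which has also been linked to polyamine export, fell from 121 ± 7.21 to 106 ± 3.52 CPM (SD, n = 4; log2 fold change -0.20 with SE 0.05, adjusted p = 0.0142 by edgeR). The call was lost without KO replicate 8 or WT replicate 13. Over its alternatives, which leave out limma on log2(TPM + 1) as for Adi1, its adjusted p ran from 0.00145 to 0.0661. None of the 4 genes of hypusination, the use of spermidine to modify the translation factor eIF5A, passed with edgeR, DESeq2 or limma-voom. At an unadjusted p under 0.05 there was 1 with edgeR, Eif5a2 (0.0475, adjusted p = 0.169, in a range of 0.0689 to 0.441 over its alternatives), and the same 1 with DESeq2 (0.0388). Eif5a itself averaged 681 ± 15.5 CPM with KO and 696 ± 31.9 CPM with WT (SD, n = 4; edgeR adjusted p = 0.678), with a 95% interval from -7.71% to 3.88%.

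**Figure D5:**
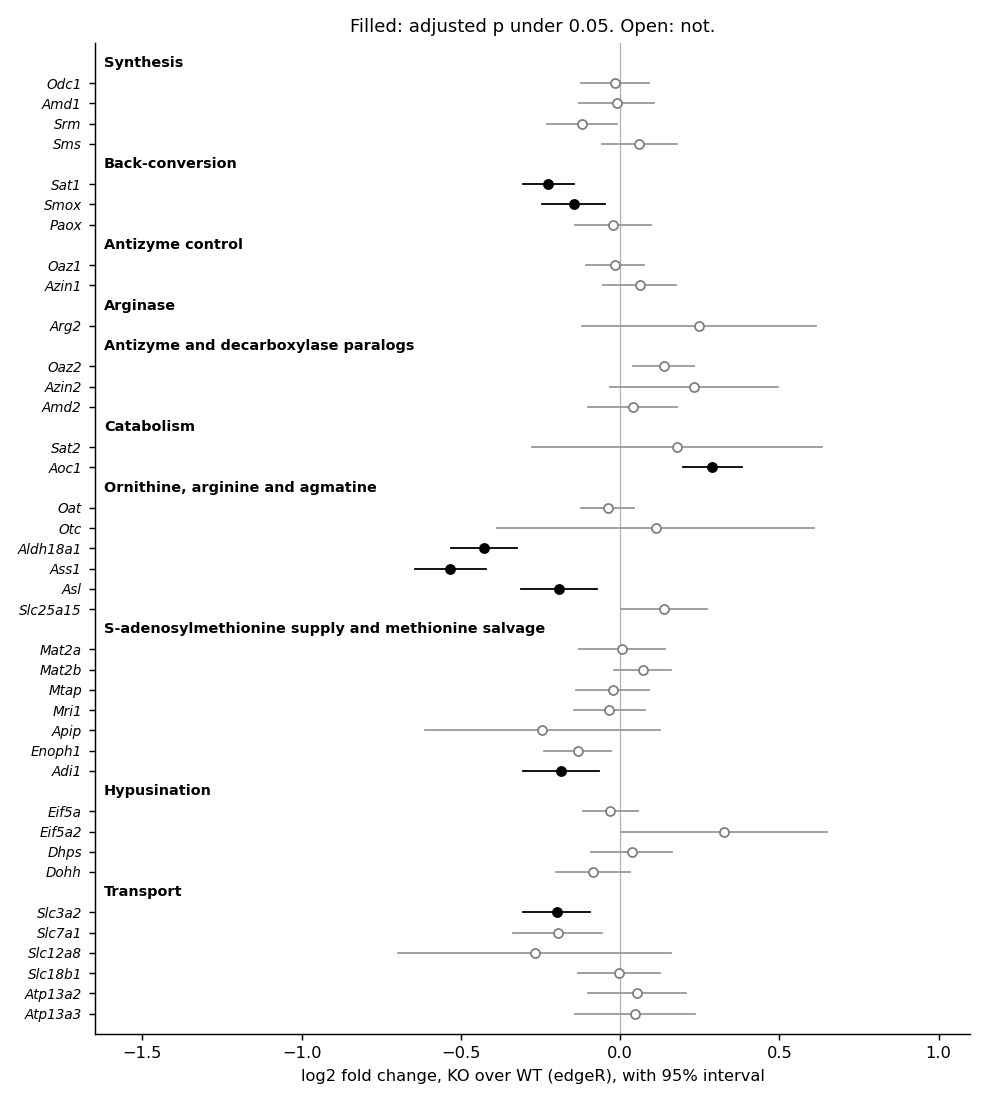
Log2 fold changes of KO over WT with 95% intervals for the 10 polyamine genes (first 4 groups) and the 28 further pathway genes tested. Filled points passed at an adjusted p under 0.05: Sat1, Smox, Aldh18a1, Ass1, Asl, Adi1 and Slc3a2 to the left of 0 and Aoc1 to the right.

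The genes whose profile over the 8 libraries was closest to that of Sat1, by the root mean square difference of centred log2 CPM among 9787 genes, were Rps6 (0.015), Rpl35 (0.023) and Rps3a1 (0.025), all of which encode ribosomal proteins. Their log2 fold changes were -0.22, -0.19 and -0.20. For Smox they were Naa10 (0.023), Tbc1d17 (0.025) and Mien1 (0.026), at log2 fold changes of -0.13, -0.16 and -0.15. Of these Naa10 did not pass (edgeR adjusted p = 0.0787), and Tbc1d17 (0.0462) and Mien1 (0.0420) passed narrowly. This is a description of 8 libraries that fall into 2 genotypes. The search used the difference between genotypes, so similar fold changes follow from how these genes were picked. The share of ribosomal protein genes among those searched was not counted.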

How the data were processed

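The raw counts per gene, the FPKM values and the TPM values were deposited by the authors in 1 table. HTSeq, TopHat, TopHat2 and Bowtie2 are named without version or role in the submitters' processing notes, with GRCm38 as the build. Per the labels' protocols, stranded mRNA libraries were made from 1 µg of RNA. In each library 673 to 772 genes had a count of 2 and only 548 to 622 a count of 1, and both mates of a pair may have been counted. A count of 0 then allows 6 counts in place of 3, and such limits cover counting error only.

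Genes were matched by symbol. The members and lists were chosen with earlier results of these data known. Counts were filtered by filterByExpr. TMM scaling and the quasi-likelihood test of edgeR 4.0.16 (R 4.3.3) were applied to all 8 libraries, with Benjamini-Hochberg adjustment over 14945 genes. The SE is the log2 fold change divided by the square root of F, and intervals are 95%. The step was tested on simulated data with independent replicates, a setting that these libraries may not meet. No 2 libraries of a genotype were identical, and pairs differed by more than sampling noise (chi-square per degree of freedom 4.94 to 24.9). TPM and FPKM were used for levels and for 4 ratios within a library, with two-sided exact permutation tests (scipy 1.17.1).

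Alternatives were DESeq2 1.42.0, limma-voom (limma 3.58.1), 3 scalings, 2 filters, an adjusted p under 0.01 and leaving out each library. Chosen after seeing the data were summing named copies into the parent gene and limma on log2(TPM + 1). Neither enters the calls and ranges over alternatives given for single further pathway genes. The text names all 10 genes, the further pathway genes that passed, the most abundant gene by TPM of each further group, and for the 2 lowest adjusted p-values the 3 most alike genes of at least 5 CPM. Eif5a2, Slc12a2, the genes named as untested and the marker genes at 0 were chosen after their values were seen. So were the overlapping genes and the copies of Amd1, Oaz1 and Sms.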

Additional observations from a re-analysis of the deposited data

Results flagged for a closer look

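In 38 tested pathway genes, 76 groups of 4 libraries were checked for a library far from the other 3, and 2 were found, where chance flags about 1 in 20. Arg2 in WT replicate 13 stood at 2.30 CPM, while the other WT libraries lay between 4.14 and 4.29 CPM. The gap was 0.924 of the group's range. Amd2 in WT replicate 16 stood at 22.6 CPM, against 27.3 to 28.0 CPM in the other WT libraries (0.871 of the range). In that library Amd1, Azin1 and Sms were also the lowest of the 8, at 132, 133 and 46.8 CPM.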

How the results depend on the processing

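The count of 2 lower polyamine genes became 1 with DESeq2 size factors, upper quartile or library totals as scaling, with no filter on low counts, with limma on log2(TPM + 1) and at an adjusted p under 0.01, and was 1 to 2 when 1 library was left out. In each case Sat1 remained and Smox was lost. The Smox log2 fold change was -0.14 (adjusted p = 0.0508) with DESeq2 size factors, -0.14 (0.0620) with upper quartile, -0.14 (0.0534) with library totals, -0.14 (0.0757) with no filter, -0.092 (0.253) on the TPM scale, and -0.16 to -0.12 with 1 library left out. No polyamine gene was called higher under any of the 18 alternatives. Of the further pathway genes 2 were higher in place of 1 with DESeq2 size factors, library totals, the DESeq2 test, the stricter filter and on the TPM scale. Of these genes 3 were lower in place of 5 with no filter, 2 on the TPM scale and 2 at an adjusted p under 0.01, and 2 to 5 with 1 library left out. Of all genes 562 were higher and 597 lower at an adjusted p under 0.01. On the TPM scale 1201 were higher and 777 lower, so that 60.7% of calls were higher, against 48.0% in the count fit. Between 696 and 1386 were higher and 724 to 1404 lower with 1 library left out, where the higher genes were 757 when KO replicate 5 was omitted. Omitting KO replicate 8 gave the lowest value of each range, and omitting WT replicate 13 left 808 lower genes. The other 8 polyamine genes and all 4 ratios passed no threshold under any alternative run, but the signs of Odc1, Amd1, Paox and Oaz1 were not kept throughout. Arg2 was not among the genes kept by the stricter filter. No paired analysis was possible because the replicate numbers of the genotypes (5 to 8 and 13 to 16) are not shared. With 1 library left out the smallest exact p exceeds 0.05, so those fits of the ratios say nothing on stability. With all 8 libraries, a single ratio at the smallest exact permutation p of 0.0286 adjusts to 0.114 over the 4 ratios. Sms to Srm stood at that limit in TPM, FPKM and counts, so its failure to pass there is equally uninformative. Depth limits Arg2 most, at 96 to 231 counts.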
